A study of Mus musculus with 23 samples.

Results

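The citrate cycle and the entry of pyruvate into it were followed through 31 genes in the colon mucosa of mice with and without the nuclear receptor PPARα, fed a diet with or without heme. The genes were chosen by the function of their products: carriers and enzymes that bring pyruvate into the cycle, the enzymes of the cycle itself, and the aminotransferases and the dehydrogenase that join it to amino acids. Of the 31 genes, 29 had a probe set of their own among the 18820 genes measured on the arrays. Mpc2 had no probe set annotated to it, Pdha1 was covered only by probe sets shared with another gene, and neither is given a value here. For each gene the brightest of its probe sets, by the mean over all arrays, was used.

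Scraped colon mucosa of 23 mice was analysed, with 1 array per mouse. All mice were male, began the diets at an age of 7 to 9 weeks, and ate a purified Westernized diet with 40 energy% of fat and a low calcium content of 30 µmol/g, to which 0.5 µmol heme/g was added for the heme groups, for 14 days. The 4 groups were KO heme (n = 6), KO control (n = 6), WT heme (n = 6) and WT control (n = 5), and each group held separate mice. KO mice were 129S4/SvJae-Pparatm1Gonz/J, in which the ligand binding domain of PPARα is disrupted in every cell, and WT mice were 129S1/SvImJ, so that genotype and substrain cannot be told apart. One further WT control array had been left out by the authors because of its quality. Signals are given as linear signal, in arbitrary units, which can be compared between mice for 1 gene but not between genes.

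The citrate cycle oxidises acetyl groups in the mitochondrial matrix and hands the electrons to the respiratory chain. Pyruvate from glycolysis enters through a carrier in the inner membrane and is then either turned into acetyl-CoA by the pyruvate dehydrogenase complex or carboxylated to oxaloacetate. Intermediates leave and re-enter the cycle through transaminases, glutamate dehydrogenase and malic enzymes, and succinate dehydrogenase is at once a cycle enzyme and complex II of the respiratory chain. Colonocytes are known to draw much of their energy from butyrate, which reaches the cycle as acetyl-CoA without passing through pyruvate dehydrogenase.

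As a check of the labels, the Ppara probe set gave 163 to 238 in KO heme mice, against 344 to 475 in WT heme mice, and 240 to 378 in KO control mice, against 444 to 560 in WT control mice, with no overlap between genotypes on either diet. All 14 pan-epithelial marker genes were measured and none lay under a signal of 20. The scrapings also held smooth muscle RNA: the summed signal of 14 smooth muscle genes was 3535 to 6048 in KO heme mice, against 3687 to 9489 in KO control mice, and 3891 to 5954 in WT heme mice, against 6697 to 19300 in WT control mice. Smooth muscle genes were lower on heme for 1 of 14 in KO mice (median log2 fold change -0.50) and for 12 of 14 in WT mice (median -1.14). All 11 measured mitotic genes were higher on heme in both genotypes, with sums of 4377 to 6629 in KO heme mice, against 2409 to 3909 in KO control mice, and of 4709 to 7274 in WT heme mice, against 3008 to 4166 in WT control mice. Of 14 pan-epithelial genes, 4 were higher and 2 lower on heme in KO mice and 2 were higher and 2 lower in WT mice. Of 7 measured goblet cell genes, 1 was higher and 3 lower in KO mice and 0 were higher and 2 lower in WT mice, and their sums were 36310 to 41990 in KO heme mice, against 44520 to 46060 in KO control mice, and 38140 to 42810 in WT heme mice, against 43430 to 44740 in WT control mice. Of the other lists, no fibroblast gene (of 8) and no lymphocyte and macrophage gene (of 11) was called on heme in either genotype. Of all genes, 9.23% were higher and 9.2% lower in KO mice, and 9.6% were higher and 8.29% lower in WT mice. In such bulk tissue, fewer cells of a type and less RNA per cell cannot be told apart, and the part of cell composition in the results was not tested beyond a model with the smooth muscle level of each array and a centring of the arrays on epithelial genes. Replicate 1 of the KO heme group stood apart within its group: it had the lowest signal of the group for 22 of the 29 genes, and the counts in KO mice, and the calls that changed, are also given without it.

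Heme raised most of the cycle genes in both genotypes, by a small step, with Got1 above the rest and Me3 and Glud1 in the other direction. With limma and Benjamini-Hochberg adjustment over all 18820 genes, a gene was called when its adjusted p was under 0.01 and its mean signal was above 20 in at least 1 of the compared groups. In KO mice 19 of 29 genes were called higher on heme and 2 lower, against 9.23% of all genes called higher and 9.2% called lower. In WT mice 20 of 29 were called higher and 2 lower, against 9.6% and 8.29% of all genes. The same 18 genes were higher in both genotypes, where 6.69% of all genes were, and the same 2 genes, Me3 and Glud1, were lower in both, where 5.44% of all genes were. The median log2 fold change over the 29 genes was 0.25 in KO mice and 0.33 in WT mice, next to -0.01 over all genes in each genotype. Apart from Me3 and Glud1, all log2 fold changes were positive in both genotypes, 27 of 29. Every KO heme mouse lay above every KO control mouse for 17 genes (7.3% of all genes) and below for 2 (6.62%), and every WT heme mouse lay above every WT control mouse for 20 genes (8.21%) and below for 2 (6.91%).

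The shift could be read in single mice. The median over the 29 genes, set against the mean of the WT control mice on the log2 scale, was 0.11 to 0.29 in KO heme mice, against -0.06 to 0.01 in KO control mice, and 0.23 to 0.37 in WT heme mice, against -0.04 to 0.04 in WT control mice. The lowest KO heme value was that of replicate 1, and without this mouse 23 genes were called higher and 2 lower in KO mice, with a median of 0.29. Of all 18820 genes, 1717 were then called higher and 1788 lower. This mouse was singled out by its low values of the same 29 genes, so the counts without it lean upward. The counts also moved with the model. With the smooth muscle level of each array as a covariate, 17 genes were called higher in KO mice and 11 in WT mice, and when each array was centred on the 14 pan-epithelial genes, 11 were called higher in KO mice and 15 in WT mice. Of all 18820 genes, 1438 were called higher in KO mice and 633 in WT mice with the covariate, and 783 in KO mice and 952 in WT mice with the centring. The 9 genes lost with the covariate in WT mice were Pdhb, Pdhx, Idh2, Ogdh, Dlst, Suclg1, Sucla2, Sdhb and Mdh1, among which the log2 fold change of Pdhx was 0.21 (limma adjusted p = 0.138) and that of Sucla2 0.13 (adjusted p = 0.345). The other 7 had log2 fold changes of 0.16 (Ogdh) to 0.32 (Pdhb) with the covariate, and those of Suclg1, Mdh1 and Idh2, at 0.29, 0.32 and 0.17, were no smaller than without it. The 8 lost with the centring in KO mice were Pdhb, Pdhx, Aco1, Idh3a, Idh3g, Ogdh, Mdh1 and Got2. Got1, Dlat, Dld, Cs, Sdhc, Sdhd, Fh1 and Mdh2 were called higher in both genotypes under both of these settings.

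**Figure D1:**
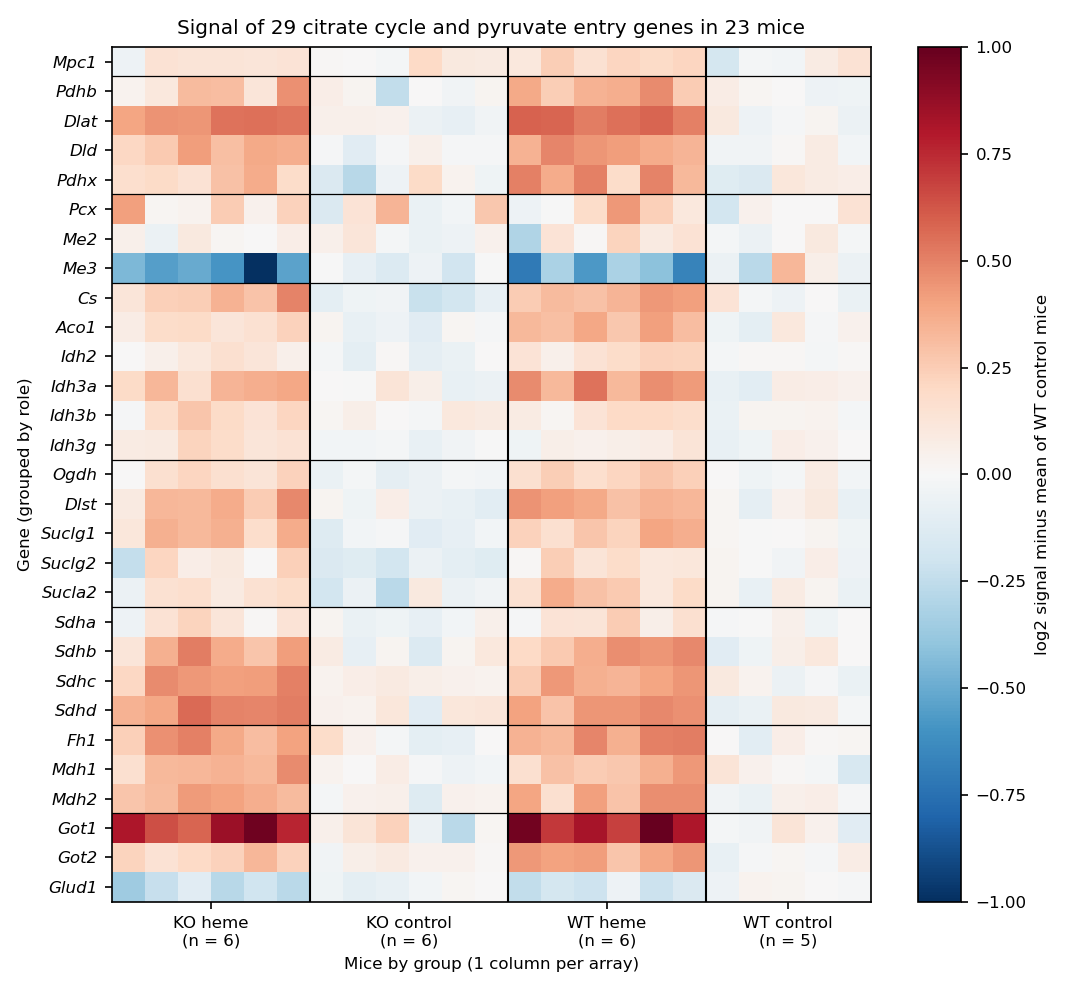
Signal of the 29 genes (vertical axis, grouped by role) in each of the 23 mice (horizontal axis, 1 column per array, groups KO heme, KO control, WT heme and WT control), as log2 signal minus the mean of the WT control mice. Values past an end of the colour scale take its end colour. Most genes were above the WT control mean in both heme groups, Got1 most strongly, while Me3 and Glud1 were below it, and replicate 1 of the KO heme group, its first column, was paler than the other KO heme mice for most genes.

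**Figure D2:**
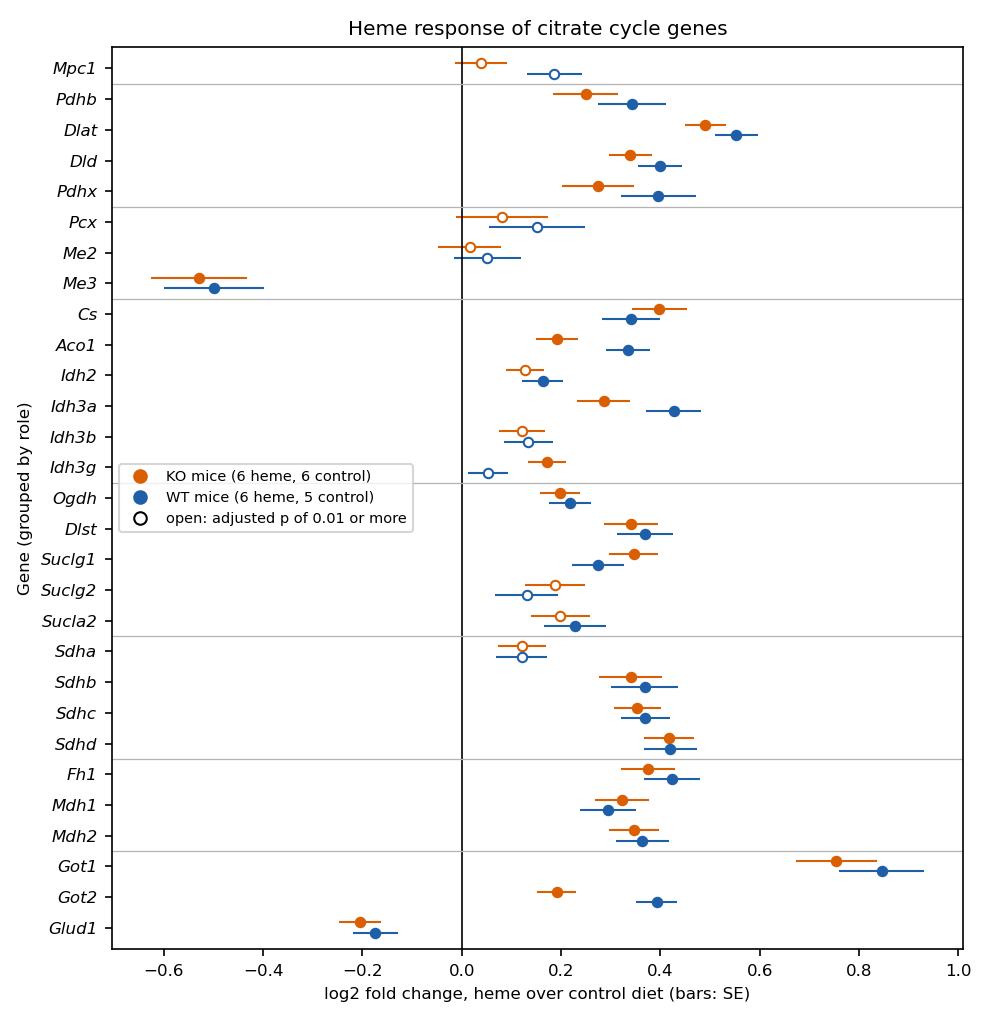
Log2 fold change on heme (horizontal axis, heme over control) for the 29 genes (vertical axis, grouped by role) in KO mice (6 heme, 6 control) and WT mice (6 heme, 5 control), with bars for the SE from limma. Filled symbols mark genes called at an adjusted p under 0.01. Values in KO mice ran between -0.53 (Me3) and 0.75 (Got1), and in WT mice between -0.50 and 0.85 for the same genes.

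Of the genes of pyruvate entry, the carrier gene was not called on heme in either genotype with the probe set used. Mpc1, a subunit of the mitochondrial pyruvate carrier, had a signal of 1710, 1939 and 1954 (lowest, median, highest) in KO heme mice, against 1744, 1838 and 2031 in KO control mice. In WT heme mice it was 1902, 2038 and 2108, against 1565, 1750, 1740, 1871 and 1960 in the WT control mice. The groups overlapped in both genotypes, and the log2 fold change was 0.04 ± 0.05 (SE, limma adjusted p = 0.647) in KO mice and 0.19 ± 0.05 (adjusted p = 0.0128) in WT mice. The probe set used for Mpc1 is numbered among probe sets of chromosome 12, while the gene lies on chromosome 17. A dimmer Mpc1 probe set, numbered among probe sets of chromosome 17, gave -0.06 in KO mice (adjusted p = 0.574) and 0.29 in WT mice (adjusted p = 0.00676), so the call in WT mice depends on the probe set. It was also gained with a replicate block (adjusted p = 0.00579) and with a variance trend (adjusted p = 0.00704).

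All 4 measured genes of the pyruvate dehydrogenase complex rose in both genotypes. Dlat encodes the E2 core, the acetyltransferase on which the complex is built. Its signal was 719, 772 and 802 in KO heme mice (lowest, median, highest), against 517, 550 and 568 in KO control mice, and it was 776, 812 and 826 in WT heme mice, against 585, 531, 543, 559 and 526 in the WT control mice. Heme and control mice did not overlap in either genotype. The log2 fold change of Dlat was 0.49 ± 0.04 in KO mice (limma adjusted p = 1.1e-08) and 0.55 ± 0.04 in WT mice (adjusted p = 4.09e-09), the second largest rise among the 29 genes. Dld, the E3 dehydrogenase that the complex shares with oxoglutarate dehydrogenase, had log2 fold changes of 0.34 in KO mice and 0.40 in WT mice. Pdhb, the beta subunit of E1, had 0.25 and 0.34, and Pdhx, the protein that tethers E3 to the core, had 0.27 and 0.40, in KO and WT mice. In KO mice the calls for Pdhb and Pdhx were narrow (adjusted p = 0.00558 and 0.00607), and their KO groups overlapped.

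Pcx, Me2 and Me3 were not called higher in either genotype. Pcx, pyruvate carboxylase, which makes oxaloacetate from pyruvate, had log2 fold changes of 0.08 ± 0.09 in KO mice and 0.15 ± 0.10 in WT mice and was not called. Me2, a mitochondrial malic enzyme that uses NAD, had 0.02 ± 0.06 and 0.05 ± 0.07 in KO and WT mice and was not called. Me3, the mitochondrial malic enzyme that uses NADP, fell. Its signal was low in all groups, at 26.8, 37.3 and 39.8 in KO heme mice (lowest, median, highest), against 47.5, 51.9 and 54.2 in KO control mice, and at 33.4, 38.7 and 43.7 in WT heme mice, against 52.2, 45.0, 68.5, 56.6 and 52.3 in the WT control mice. No heme mouse overlapped the control mice of its genotype. The log2 fold change of Me3 was -0.53 ± 0.10 in KO mice (limma adjusted p = 0.000238) and -0.50 ± 0.10 in WT mice (adjusted p = 0.000706). A second, dimmer Me3 probe set, at 21.5 to 27.9 in KO heme mice, against 22.4 to 30.1 in KO control mice, gave -0.07 in KO mice and 0.04 in WT mice (adjusted p = 0.623 and 0.819), so the fall was seen by only 1 of its 2 probe sets. The average of both gave -0.30 in KO mice (adjusted p = 0.00033) and -0.23 in WT mice (adjusted p = 0.00517).

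In the first span of the cycle, from citrate to oxoglutarate, 4 of 6 genes rose in KO mice and 4 of 6 in WT mice. Such counts by role, here and below, stand beside 9.23% of all genes called higher in KO mice and 9.6% in WT mice. Cs, citrate synthase, which joins acetyl-CoA to oxaloacetate, had a signal of 3036 to 3938 in KO heme mice, against 2399 to 2730 in KO control mice, and of 3335 to 3777 in WT heme mice, against 2674 to 3073 in WT control mice. Its groups did not overlap, with log2 fold changes of 0.40 ± 0.06 in KO mice and 0.34 ± 0.06 in WT mice. Idh3a is the catalytic subunit of the NAD-dependent isocitrate dehydrogenase of the cycle. Its signal was 1166, 1319 and 1362 in KO heme mice (lowest, median, highest), against 992, 1046 and 1142 in KO control mice, and it was 1307, 1425 and 1523 in WT heme mice, against 990, 971, 1097, 1096 and 1077 in the WT control mice. The groups were apart in both genotypes, and the log2 fold change was 0.29 ± 0.05 in KO mice (limma adjusted p = 0.000273) and 0.43 ± 0.06 in WT mice (adjusted p = 6.53e-06).

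The 2 other subunits of the same enzyme had smaller log2 fold changes. Idh3b had log2 fold changes of 0.12 ± 0.05 in KO mice and 0.13 ± 0.05 in WT mice and was not called. Idh3g had a signal of 2604, 2691 and 2858 in KO heme mice, against 2331, 2408 and 2443 in KO control mice, without overlap, and of 2377, 2557 and 2689 in WT heme mice, against 2333, 2384, 2567, 2533 and 2467 in the WT control mice, with overlap. It was called in KO mice (0.17 ± 0.04, limma adjusted p = 0.00141) and not in WT mice (0.05 ± 0.04, adjusted p = 0.369). Idh2, the mitochondrial NADP-dependent isocitrate dehydrogenase, had 0.13 ± 0.04 in KO mice (adjusted p = 0.0152) and 0.16 ± 0.04 in WT mice (adjusted p = 0.00388), and was called only in WT mice. The difference between the genotypes in its heme effect was not called, at -0.04 (adjusted p = 0.947).

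Aco1 encodes the cytosolic aconitase, which turns into an iron-responsive RNA-binding protein when it loses its iron-sulphur cluster. It had a signal of 1024, 1092 and 1136 in KO heme mice (lowest, median, highest), against 897, 950 and 988 in KO control mice, and of 1172, 1209 and 1292 in WT heme mice, against 945, 907, 1045, 960 and 1003 in the WT control mice. Aco1 rose in both genotypes, by a log2 fold change of 0.19 ± 0.04 in KO mice (limma adjusted p = 0.00129) and of 0.33 ± 0.04 in WT mice (adjusted p = 7.63e-06). All KO heme mice lay below all WT heme mice.

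Between oxoglutarate and succinate, 3 of 5 genes rose in KO mice and 4 of 5 in WT mice. Dlst is the E2 succinyltransferase of the oxoglutarate dehydrogenase complex. It had a signal of 791, 934 and 1040 in KO heme mice (lowest, median, highest), against 691, 718 and 777 in KO control mice, and of 913, 957 and 1016 in WT heme mice, against 753, 697, 767, 797 and 707 in the WT control mice. The groups did not overlap, and the log2 fold change was 0.34 ± 0.05 in KO mice (limma adjusted p = 5.64e-05) and 0.37 ± 0.06 in WT mice (adjusted p = 4.18e-05). Ogdh, the E1 subunit of the same complex, had 0.20 in KO mice and 0.22 in WT mice and was called in both. Succinyl-CoA ligase makes GTP or ATP, by its choice of beta subunit. Suclg1, the shared alpha subunit, rose by 0.35 ± 0.05 in KO mice and 0.27 ± 0.05 in WT mice. Suclg2, the GTP-forming beta subunit, was not called (0.19 ± 0.06 in KO mice, adjusted p = 0.0222, and 0.13 ± 0.06 in WT mice, adjusted p = 0.135), and Sucla2, the ATP-forming one, was called in WT mice (0.23 ± 0.06, adjusted p = 0.00755) and not in KO mice (0.20 ± 0.06, adjusted p = 0.0138). The difference between the genotypes in the heme effect of Sucla2 was not called, at -0.03 (limma adjusted p = 0.977).

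Replicate 1 of the KO heme group bore on this enzyme. Without it, Suclg2 was called in KO mice at 0.25 (limma adjusted p = 0.000515) and Sucla2 at 0.23 (adjusted p = 0.00414), as were Idh2 at 0.14 (adjusted p = 0.0093) and Idh3b at 0.16 (adjusted p = 0.00779). Replicate 1 had the lowest KO heme signal for each of these genes, so leaving it out could only raise their fold changes.

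In complex II, the membrane and electron transfer subunits rose and the flavoprotein subunit was not called. Sdhd, one of the 2 membrane anchors, had a signal of 1229, 1355 and 1427 in KO heme mice (lowest, median, highest), against 892, 1015 and 1046 in KO control mice, and of 1177, 1310 and 1348 in WT heme mice, against 904, 918, 1030, 1024 and 952 in the WT control mice. The groups did not overlap, and the log2 fold change was 0.42 ± 0.05 in KO mice (limma adjusted p = 2.79e-06) and 0.42 ± 0.05 in WT mice (adjusted p = 5.14e-06). Sdhc, the other anchor, had 0.35 in KO mice and 0.37 in WT mice, and Sdhb, the iron-sulphur subunit, had 0.34 in KO mice and 0.37 in WT mice, all called. Sdha, which carries the active site for succinate and the FAD cofactor, had a signal of 1657 to 2003 in KO heme mice, against 1617 to 1779 in KO control mice, and of 1704 to 2042 in WT heme mice, against 1664 to 1776 in WT control mice. Its groups overlapped, and its log2 fold change of 0.12 ± 0.05 was the same in KO and WT mice (adjusted p = 0.0659 in KO mice and 0.0838 in WT mice).

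Because both probe sets are read on the same array, the log2 ratio of a subunit to its partner can be followed from mouse to mouse, and 11 such pairs were examined, with no test. The ratio of Sdhd to Sdha was higher on heme by 0.30 in KO mice and 0.30 in WT mice, with no overlap between heme and control mice in either genotype. The ratio of Sdhb to Sdha was higher by 0.22 in KO mice, with no overlap, and by 0.25 in WT mice, with overlap, and that of Sdhc to Sdha by 0.23 and 0.25, in the same pattern. The ratio of Idh3a to Idh3g was higher by 0.11 in KO mice, with overlap, and by 0.37 in WT mice, without. The ratio of the malate dehydrogenases Mdh2 and Mdh1 was one that stayed within the overlap in both genotypes, with changes of 0.02 in KO mice and 0.07 in WT mice. Those of Suclg1 to Suclg2 and of Suclg1 to Sucla2 also overlapped in both. The ratios of Idh3a to Idh3b, Dlat to Pdhb and Dlst to Ogdh overlapped in KO mice and not in WT mice. How often the ratios of other pairs of genes lie apart was not counted.

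The last span of the cycle, from fumarate to oxaloacetate, rose in full, with 3 of 3 genes called in each genotype. Fh1 is fumarase. It had a signal of 843, 936 and 1010 in KO heme mice (lowest, median, highest), against 668, 710 and 809 in KO control mice, and of 894, 958 and 1019 in WT heme mice, against 716, 664, 746, 721 and 724 in the WT control mice. No heme mouse overlapped the control mice of its genotype, and the log2 fold change was 0.38 ± 0.05 in KO mice (limma adjusted p = 2.13e-05) and 0.42 ± 0.06 in WT mice (adjusted p = 1.01e-05). Mdh2, the mitochondrial malate dehydrogenase that closes the cycle, had 0.35 in KO mice and 0.36 in WT mice. Mdh1, its cytosolic partner in the malate-aspartate shuttle, had 0.32 in KO mice and 0.29 in WT mice.

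The largest rise of all was outside the cycle proper. Got1 is the cytosolic aspartate aminotransferase, the other cytosolic enzyme of the malate-aspartate shuttle. It had a signal of 1083, 1247 and 1423 in KO heme mice (lowest, median, highest), against 601, 742 and 850 in KO control mice, and of 1159, 1274 and 1530 in WT heme mice, against 712, 706, 789, 746 and 668 in the WT control mice. The lowest heme mouse lay above the highest control mouse in both genotypes, and the fold change was 1.69 in KO mice and 1.80 in WT mice, a log2 fold change of 0.75 ± 0.08 (limma adjusted p = 5.41e-07) and 0.85 ± 0.09 (adjusted p = 2.42e-07). Got2, the mitochondrial aspartate aminotransferase, had a signal of 2356, 2493 and 2681 in KO heme mice, against 2082, 2192 and 2269 in KO control mice, and of 2585, 2825 and 2886 in WT heme mice, against 2026, 2117, 2164, 2108 and 2238 in the WT control mice. Its groups were also apart on heme in each genotype, with a log2 fold change of 0.19 ± 0.04 in KO mice (adjusted p = 0.000785) and 0.39 ± 0.04 in WT mice (adjusted p = 4.83e-07). The ratio of Got1 to Got2 was higher on heme by 0.56 in KO mice and 0.45 in WT mice, without overlap in either.

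Glud1, the glutamate dehydrogenase that forms oxoglutarate from glutamate, fell. Its signal was 860 to 1023 in KO heme mice (median 928), against 1032 to 1117 in KO control mice (median 1077), and 932, 966 and 1063 in WT heme mice (lowest, median, highest), against 1067, 1130, 1126, 1104 and 1092 in the WT control mice. The groups were apart by a narrow margin in both genotypes. The log2 fold change was -0.20 ± 0.04 in KO mice (limma adjusted p = 0.00084) and -0.17 ± 0.04 in WT mice (adjusted p = 0.00517). With arrays centred on their median over all genes it was -0.16 in KO mice (adjusted p = 0.0335) and -0.14 in WT mice (adjusted p = 0.0718), and the call was lost in both. With the smooth muscle covariate it was -0.21 in WT mice (adjusted p = 0.0299).

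**Figure D3:**
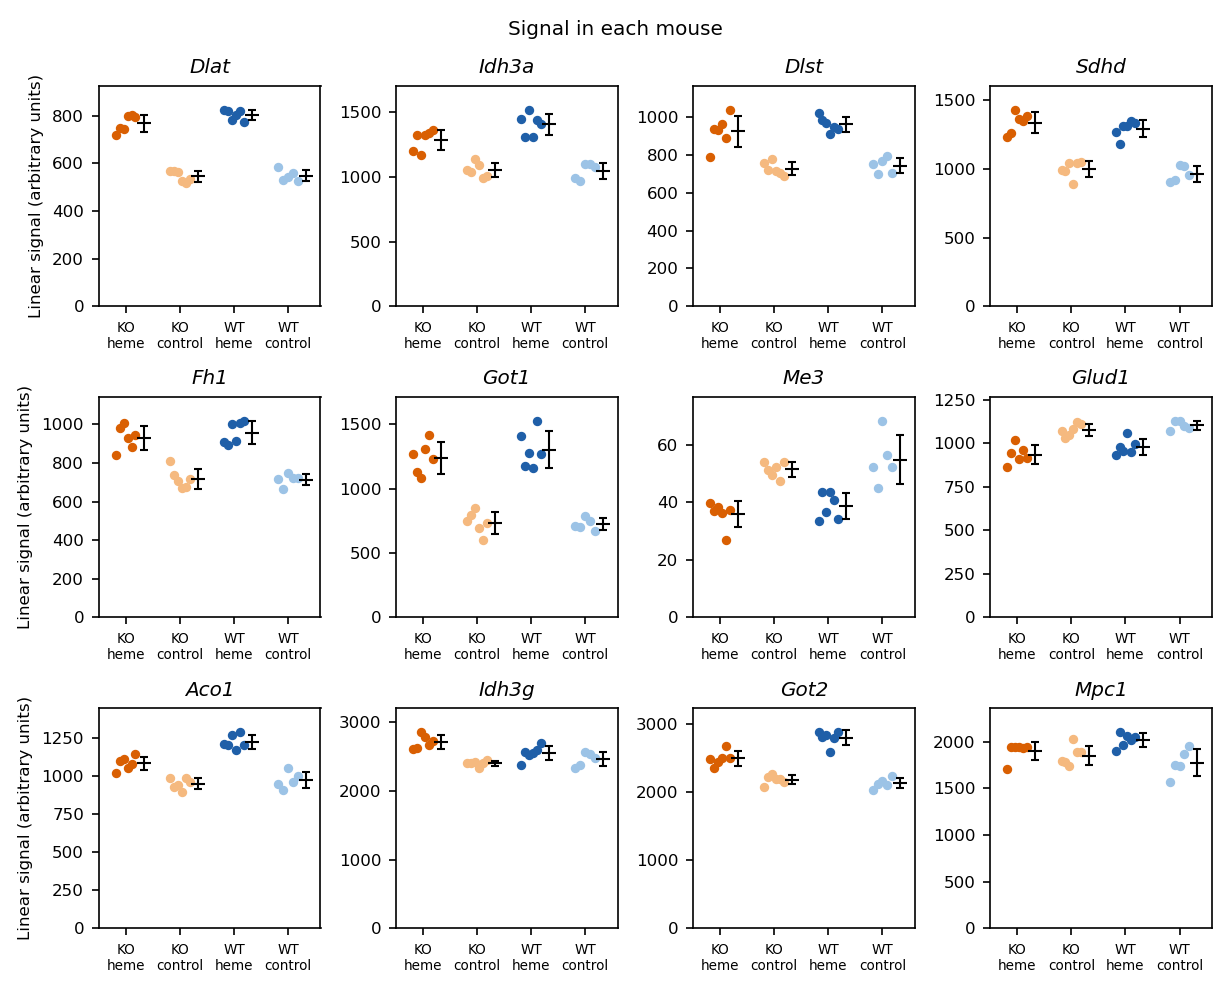
Linear signal (vertical axis, arbitrary units, from 0) of 12 genes in each mouse of the KO heme, KO control, WT heme and WT control groups (horizontal axis); points are mice and the black marks are the mean ± SD. Got1 averaged 1240 ± 123 in KO heme mice, against 737 ± 86 in KO control mice (SD, n = 6 each), and for Aco1 all KO heme mice lay below all WT heme mice.

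Promoters of 3 genes are shown for their sequence context, from 250 bases before to 50 after the start of the gene, as given by RefSeq on GRCm38.p6. Got1 showed the largest rise, and Sdhd and Sdhb are subunits of complex II that rose beside a partner that was not called. They are Got1 (chr19:43524556-43524855, minus strand), Sdhd (chr9:50603800-50604099, minus strand) and Sdhb (chr4:140961021-140961320, plus strand), each written 5′ to 3′ on the strand of the gene. Capitals mark CCAAT, the letters bound by NF-Y, CCGGAAG, letters of an ETS site such as that of the mitochondrial gene regulator GABP, and TCAAGGTCA, letters of the estrogen-related receptors, or the reverse complement of any of them.
Got1: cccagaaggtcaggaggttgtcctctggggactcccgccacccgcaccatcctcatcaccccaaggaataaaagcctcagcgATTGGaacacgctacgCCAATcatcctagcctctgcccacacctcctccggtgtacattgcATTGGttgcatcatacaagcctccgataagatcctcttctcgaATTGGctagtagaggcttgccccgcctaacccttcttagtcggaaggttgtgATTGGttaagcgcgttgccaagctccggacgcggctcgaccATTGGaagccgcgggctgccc
Sdhd: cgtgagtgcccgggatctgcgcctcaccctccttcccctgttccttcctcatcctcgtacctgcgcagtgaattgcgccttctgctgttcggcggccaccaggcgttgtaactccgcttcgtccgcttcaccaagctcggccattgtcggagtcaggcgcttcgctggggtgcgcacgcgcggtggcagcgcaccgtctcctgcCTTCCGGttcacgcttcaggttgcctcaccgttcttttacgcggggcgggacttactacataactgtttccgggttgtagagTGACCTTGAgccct
Sdhb: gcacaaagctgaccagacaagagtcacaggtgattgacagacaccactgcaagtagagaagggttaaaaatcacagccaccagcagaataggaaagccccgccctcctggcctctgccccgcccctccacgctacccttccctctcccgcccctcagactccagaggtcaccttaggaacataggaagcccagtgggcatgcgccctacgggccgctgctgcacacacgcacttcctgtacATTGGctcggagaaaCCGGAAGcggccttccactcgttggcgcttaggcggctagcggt

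The Got1 window held CCAAT on 1 strand or the other 6 times, a number reached by 24 of the 27025 genes with a promoter in the table (0.0888%). The Sdhd window held 1 ETS match and 1 estrogen-related receptor match, and the Sdhb window held 1 ETS match close to 1 CCAAT match. Over the 28 listed genes searched (all but Idh3a, Me2 and Sdhc, and with Mpc2 and Pdha1), CCAAT was found in 16 (57.1%, against 41.1% of all genes) and CCGGAAG in 7 (25.0%, against 9.93%). TCAAGGTCA was found in 1, Sdhd (3.6%, against 0.466%). GGGCGG, the letters of Sp factors, which are left in lower case, were found in 19 (67.9%, against 38.2%). TGACNNNGC, the core of the antioxidant element, was found in 6 (21.4%, against 14.0%), and CACGTG, the E-box, in 2 (7.1%, against 8.09%). The full palindromic site of NRF1 and the consensus direct repeat that PPAR binds with its partner RXR were found in 0 of 28 (1.07% and 0.0481% of all genes). Both strands were searched, and AGGTCA stands in both the estrogen-related receptor letters and the direct repeat. Among the protein-coding genes alone, CCGGAAG stood in 12.9%, CCAAT in 42.3% and GGGCGG in 49.2%. The ETS letters stood in 3 of the 16 matched genes that were higher in both genotypes and in 4 of the 12 others. CCAAT stood in 9 of these 16 genes and in 7 of the 12 others, a like share.

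On the control diet no difference between the genotypes was called. In KO control mice, set against WT control mice, 0 of 29 genes were called (0.0531% of all genes), 0 had an unadjusted p under 0.05 (5.74% of all genes), and the median log2 fold change was -0.02. Suclg2 was the 1 gene whose KO control mice all lay below the WT control mice, at 797 to 869 against 874 to 948 (0.414% of all genes did so), with a log2 fold change of -0.12 by limma (adjusted p = 0.905 was the lowest of the 29 genes). The probe set used for Suclg2 is numbered among those of chromosome X, while a probe set numbered among those of the chromosome of the gene, 6, overlapped, at 783 to 874 in KO control mice, against 854 to 922 in WT control mice, with a log2 fold change of -0.08. The 14 smooth muscle genes were lower in value in KO control mice (median log2 fold change -0.63). By limma 12 of them had an unadjusted p under 0.05 and 0 were called. Their part in this comparison was not tested beyond the model with the smooth muscle level of each array.

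On the heme diet most values were lower in KO mice, and none passed the threshold. In KO heme mice, set against WT heme mice, the log2 fold change was negative for 22 of 29 genes and the median was -0.07, next to -0.01 over all genes. By limma 0 of 29 genes were called (0.234% of all genes), and 6 had an unadjusted p under 0.05 (12.2% of all genes). The 2 lowest adjusted p values were those of Aco1 (log2 fold change -0.18 ± 0.04, adjusted p = 0.0476) and Got2 (-0.17 ± 0.04, adjusted p = 0.0482). Aco1 was also the 1 gene whose KO heme mice all lay below the WT heme mice, at 1024 to 1136 against 1172 to 1292, which held for 0.452% of all genes. Without replicate 1 of the KO heme group the median over the 29 genes was -0.03, and Aco1 was at -0.16 (adjusted p = 0.0732). With arrays centred on the pan-epithelial genes, Aco1 was called at -0.25 (adjusted p = 0.00524), and the median over all genes was then -0.08. The 11 mitotic genes were also lower in value in KO heme mice, with log2 fold changes of -0.38 to -0.16 and a median of -0.34, of which 8 had an unadjusted p under 0.05 and 0 were called. Their sums were 4377 to 6629 in KO heme mice, against 4709 to 7274 in WT heme mice. The highest KO heme sum, 6629, was that of replicate 1, which had the lowest signal of its group for 22 of the 29 genes. The part of the mitotic genes in the result was not tested.

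The heme effects themselves were compared by the difference between the effect in KO mice and that in WT mice. By limma 0 of 29 genes were called (0.0106% of all genes), and 3 had an unadjusted p under 0.05 (6.75% of all genes). For Got2 the effect was smaller in KO mice, by -0.20 ± 0.06 (unadjusted p = 0.00192, adjusted p = 0.5, 95% interval -0.32 to -0.08). A Got2 probe set numbered among those of the chromosome of the gene, 8, gave -0.18 (adjusted p = 0.605). A further, much dimmer Got2 probe set, numbered among those of chromosome 5, gave -0.05 (limma adjusted p = 0.966 over all probe sets). Its heme effects were 0.21 in KO mice and 0.26 in WT mice, and KO heme against WT heme mice was at 0.01. For Aco1 the difference was -0.14 ± 0.06 (adjusted p = 0.687, interval -0.27 to -0.02), and for Idh3g, the subunit called in KO mice alone, it was 0.12 ± 0.06 (adjusted p = 0.72, interval 0.004 to 0.23). Without replicate 1 of the KO heme group the differences were -0.20 for Got2 (adjusted p = 0.367), -0.13 for Aco1 (adjusted p = 0.585) and 0.13 for Idh3g (adjusted p = 0.539). Over all 29 genes, with the probe sets used, 23 differences were negative and 6 positive, and the bounds of their intervals lay between -0.35 and 0.26. Their median was small, at -0.0304, next to -0.0055 over all genes, and ran from -0.0449 to -0.007 with each array left out in turn. The share of negative differences over all genes was not counted. For Mpc1 the difference was -0.148 ± 0.076 with the probe set used. The Mpc1 probe set numbered among those of chromosome 17 gave -0.355 ± 0.108 (limma adjusted p = 0.461 over all probe sets), a larger difference. The interval was -0.16 to 0.15 for Sdhd and -0.34 to 0.16 for Got1, the gene with the largest heme effect. For the 14 smooth muscle genes the median difference was 0.54, with 3 at an unadjusted p under 0.05 by limma and 0 called.

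Within groups, the genes varied together only in part. After removal of the group means, the correlation over the 23 arrays had a median of 0.21 across the 406 pairs of the 29 genes, with a range of -0.52 to 0.85. Pairs of 1 of these genes with any other gene whose mean signal was above 20 had a median of -0.01. Of the 406 pairs, 64 were above 0.5. The closest pairs were Sdhc with Mdh1 (0.85) and Sdhb with Idh3b (0.84). The median was 0.50 among the genes between oxoglutarate and succinate, 0.39 in complex II and 0.14 in the pyruvate dehydrogenase complex. The correlation was negative for Got1 with Glud1 (-0.52) and with Sdha (-0.50). The pairs share the same arrays, including replicate 1 of the KO heme group, and these values are a description only.

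Genes that regulate or surround the cycle were examined next. The counts of these lists stand beside 9.23% of all genes that rose and 9.2% that fell in KO mice. In WT mice these shares were 9.6% and 8.29%, and no list was tested against them. Among 16 regulators and cofactor enzymes of pyruvate dehydrogenase, 6 rose and 1 fell on heme in KO mice, and 5 rose and 0 fell in WT mice. Pdk4, a kinase that switches the complex off, had the largest change of these, at a log2 fold change of 3.02 ± 0.29 in KO mice (limma adjusted p = 7.9e-08) and 2.37 ± 0.30 in WT mice (adjusted p = 4.7e-06), and Pdk3, another such kinase, had 0.71 in KO mice and 0.47 in WT mice. Bola3 and Iba57, which help to deliver iron-sulphur clusters to lipoate synthesis and to other mitochondrial enzymes, had 0.51 and 0.33 in KO mice and 0.51 and 0.34 in WT mice. The other 2 such kinases were not called: Pdk1 had -0.04 in KO mice and 0.00 in WT mice, and Pdk2 had -0.26 in KO mice (adjusted p = 0.133) and -0.06 in WT mice.

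Of 14 measured isoenzymes and branch enzymes, 3 rose and 2 fell in KO mice, and 3 rose and 1 fell in WT mice. Of all genes, 9.23% rose and 9.2% fell in KO mice, and 9.6% rose and 8.29% fell in WT mice. Me1, the cytosolic malic enzyme, rose by 2.19 ± 0.15 in KO mice and 2.14 ± 0.16 in WT mice on the log2 scale, while of its mitochondrial relatives Me2 was not called and Me3 fell. Idh1, the cytosolic NADP-dependent isocitrate dehydrogenase, rose by 0.66 in KO mice and 0.47 in WT mice. Of the alanine aminotransferases, Gpt, the cytosolic one, was higher (0.61 in KO mice and 0.63 in WT mice) and Gpt2, the mitochondrial one, was lower (-0.85 in KO mice and -0.74 in WT mice). Pck1, which withdraws oxaloacetate for gluconeogenesis, was lower in KO mice (-0.72, adjusted p = 0.00304) and was at -0.56 in WT mice (adjusted p = 0.0247).

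Of 8 carriers of cycle intermediates, 5 rose in KO mice and 4 in WT mice, and none fell. Slc25a10, the dicarboxylate carrier, had log2 fold changes of 0.45 in KO mice and 0.47 in WT mice, and Slc25a1, the citrate carrier, had 0.25 and 0.32. Among 4 assembly factors of complex II, Sdhaf4, which helps Sdha to join the complex, was lower on heme in KO mice (-0.37 ± 0.10, limma adjusted p = 0.00755) and was at 0.28 ± 0.11 in WT mice (adjusted p = 0.0499). The difference between the genotypes was -0.65 (adjusted p = 0.211) and was not called. Sdhaf1 was higher in KO mice at 0.24 and was not called in WT mice at 0.21.

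General mitochondrial genes were in part higher as well. Of 26 such genes for import, chaperones, membrane organisation and the control of mitochondrial biogenesis, 13 rose and 1 fell in KO mice (median log2 fold change 0.23), and 17 rose and 1 fell in WT mice (median 0.26). Tomm40, the import channel of the outer membrane, had 0.68 in KO mice and 0.69 in WT mice, and Phb, a scaffold protein of the inner membrane, had 0.53 and 0.55. The gene that fell in both was Ppargc1a, which encodes the coactivator PGC-1α of mitochondrial biogenesis, at -0.85 ± 0.11 in KO mice and -0.66 ± 0.11 in WT mice. The median of these 26 genes was near that of the 29 cycle genes, and whether the lists differed was not tested.

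**Figure D4:**
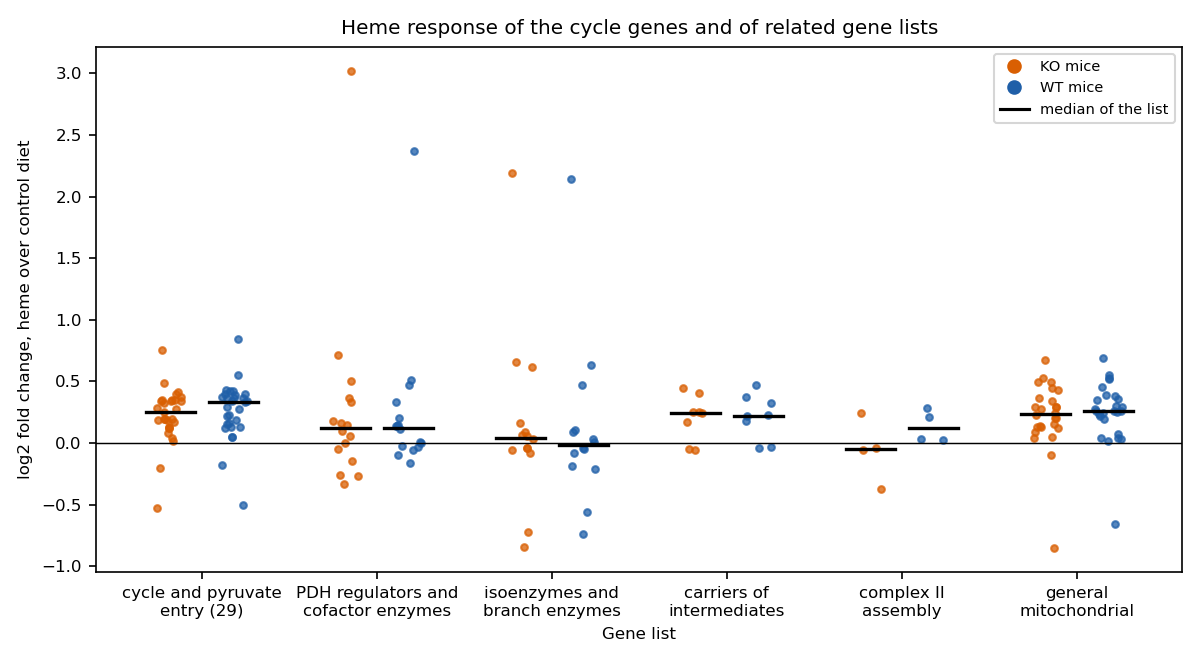
Log2 fold change on heme (vertical axis, heme over control) of each gene in the list of 29 genes and in 5 related lists (horizontal axis), in KO and WT mice; points are genes and black lines list medians. The 29 genes (medians 0.25 in KO mice and 0.33 in WT mice) and the general mitochondrial genes (0.23 and 0.26) lay mostly above 0, and the points far above the rest are Pdk4 and Me1.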

How the data were processed

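Total RNA of scraped colon mucosa was hybridised, 100 ng per mouse, to Affymetrix Mouse Gene 1.1 ST arrays. The deposited values are log2 expression, which the authors normalised over all arrays by RMA; the summarisation software and its version are not given in the sources used here. The methods describe probe sets regrouped by gene, whereas the deposited table holds 35556 probe sets under the identifiers of the manufacturer. Of these, 21218 had 1 gene symbol in the platform annotation, 21185 of which were matched by Entrez identifier to RefSeq, 1881 had several symbols and 12457 had none. Only probe sets with 1 symbol were used, the brightest for each gene. Linear signal is 2 to the power of the log2 value. Array medians lay between 5.8 and 5.9 after this normalisation. The number of arrays limits the precision.

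The 4 groups were fitted together with limma 3.58.1 in R 4.3.3 (lmFit, eBayes), without a block, and the heme effect in each genotype, the genotype effect within each diet, and the KO heme effect minus the WT one were taken as contrasts. P-values were two-sided and adjusted over all 18820 genes by Benjamini-Hochberg, with a threshold of 0.01, and a mean linear signal above 20 was required in at least 1 of the compared groups. The fit was tested on simulated data with changes set in 200 genes. It recovered 39.2% of WT heme effects of 0.3 on the log2 scale and 78% of those of 0.5. For the difference of the heme effects it recovered 14.8% and 48.4%, so that a small difference that was not called may still be present. The heme effects in KO and WT mice rest on separate mice and share only the estimate of spread. Each genotype comparison shares groups with both heme effects, so that the contrasts are not all independent. Per-mouse values were given for the gene of each role with the largest change among those called in both genotypes, and for genes with an unadjusted p under 0.05 for the difference of the heme effects; those of other genes named were chosen after their values were seen. Chromosomes of probe sets were read from the 10 neighbours on each side in the numbering of the platform, which gave the chromosome of the gene itself for 95% of 500 probe sets. For Mpc1, Suclg2 and Got2 the brightest probe set is numbered among those of another chromosome, and a probe set of the gene's own chromosome was tried as an alternative chosen after seeing the data.

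Alternatives covered the scaling of arrays, the groups in the fit, array weights, the choice of probe set, the filter, the threshold, the variance model, a replicate block, a smooth muscle covariate and each array left out in turn. The members and lists were chosen with earlier results of these data known. Promoter motifs were counted in 32851 RefSeq promoters of 27025 genes with Python 3.11.15. An item of the wider pathway is not reported here.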

Additional observations from a re-analysis of the deposited data

Results flagged for a closer look

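Of 116 groups of 5 or 6 mice, 1 for each of the 29 genes and 4 diet and genotype groups, 7 held a mouse that lay far from the others, where chance alone is taken to give about 1 in 20, or 5.8. All 7 were the lowest of their group. In the KO heme group these were replicate 1 for Mpc1 (1710, the next mouse at 1930), replicate 1 for Sdhc (1930, the next at 2220) and replicate 5 for Me3 (26.8, the next at 36.2). In the KO control group these were replicate 3 for Pdhb (90.9, the next at 105), replicate 4 for Idh3g (2330, the next at 2400) and replicate 4 for Sdhd (892, the next at 987). In the WT heme group it was replicate 4 for Got2 (2590, the next at 2790).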

How the results depend on the processing

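The calls among the 29 genes were counted again under each alternative, for each comparison on its own. In the main fit 19 were higher and 2 lower on heme in KO mice, and 20 higher and 2 lower in WT mice. With arrays centred on their median over all genes, 1 gene was lower in KO mice and 1 in WT mice, and with only the compared groups in the fit 1 was lower in WT mice. With the smooth muscle level as a covariate, 11 were higher and 1 lower in WT mice, and the medians were 0.19 in KO mice and 0.29 in WT mice. Centring on the pan-epithelial genes moved the median of all genes to -0.13 in KO mice and -0.10 in WT mice. Under it 11 genes were higher in KO mice, the medians of the 29 genes were 0.13 in KO mice and 0.24 in WT mice, and on the heme diet 1 gene was lower in KO than in WT mice, with a median of -0.14. For KO heme against WT heme mice the median over all genes was then itself -0.08, with 10 genes called higher and 35 lower. With an adjusted p under 0.05 as the threshold, 2 genes were lower in KO heme than in WT heme mice, as were 66 of all 18820 genes. Of all genes called on heme, the share called higher was 50.1% in KO mice and 53.6% in WT mice, 63.1% and 61.6% after median centring, and 18.3% and 28.8% after pan-epithelial centring. Among single genes, direction changed only for effects that were not called: Mpc1 in KO mice (-0.0861 with pan-epithelial centring, -0.0131 with its probe sets averaged, -0.0315 with the covariate and -0.0649 with the probe set of its own chromosome), Me2 in KO mice (-0.1088 with pan-epithelial centring, -0.0004 with array weights and -0.0057 with the covariate), and, with pan-epithelial centring, Me2 in WT mice (-0.0401), Pcx in KO mice (-0.0441), Idh3b in KO mice (-0.0037), Idh3g in WT mice (-0.0389) and Sdha in KO mice (-0.0038). Pan-epithelial centring subtracts 1 amount from every gene of a comparison, which sets the changes of direction under it; the cause of the others was not tested. A count over all alternatives took in both heme effects of the 29 genes and the genotype comparisons named for Aco1, Got2 and Idh3g. Of these values, 2161 kept direction and side of the threshold, 64 lost and 28 gained a call, and 12 changed direction.

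With each array left out in turn, 17 to 23 genes were higher and 2 lower in KO mice (median 0.20 to 0.29), and 18 to 21 higher and 1 to 2 lower in WT mice (median 0.31 to 0.34). The median of KO heme against WT heme mice was -0.07 to -0.03, with 0 genes called. In WT mice the Glud1 call was lost without WT control replicate 2, 3 or 4 or WT heme replicate 1, 3 or 5 (adjusted p 0.0113 to 0.0164), the Idh2 call without WT control replicate 1 or 4 or WT heme replicate 5 or 6 (0.0107 to 0.0119) and the Sucla2 call without WT control replicate 1, 2, 4 or 5 or WT heme replicate 2, 3, 4 or 6 (0.0106 to 0.0253), while Mpc1 was gained without WT control replicate 5 or KO heme replicate 1 (0.00463 to 0.00836). In KO mice the Pdhb call was lost without KO control replicate 3 or 5 or KO heme replicate 3, 4 or 6 (0.0117 to 0.017) and the Pdhx call without KO control replicate 1, 2, 3 or 6 or KO heme replicate 4 or 5 (0.0109 to 0.0197). Idh2 was gained there without WT heme replicate 2 (0.00938) and Sucla2 without KO control replicate 4 (0.00398). Replicate numbers are shared across groups in the labels, but same-numbered mice deviated together in only some pairs (correlations of -0.31 to 0.34), so the numbers were not taken as pairs. With the replicate number as a block, 18 genes were higher and 2 lower in KO mice and 20 higher and 2 lower in WT mice.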
